A study of Homo sapiens with 24 samples.

Results

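Luteolin, a plant flavone that inhibits several protein kinases, was set against its solvent DMSO in A2780 and ES2, a pair of established human lines from ovarian cancers, and the quantity described here is the difference between the lines in that effect. For each gene the change in A2780 (luteolin minus DMSO) was taken from the change in ES2 (luteolin minus DMSO), and only genes for which this difference passed a test are described. The comparison used 12 of the 24 RNA-seq libraries of the study: 3 of A2780 with DMSO, 3 of A2780 with luteolin, 3 of ES2 with DMSO and 3 of ES2 with luteolin. The other 12 libraries carry control or VRK1 siRNAs and enter only 1 alternative fit. The labels give the genotype WT for every library and give no dose, duration or culture conditions. Each line stands for 1 tumour of origin, and no label says that replicates were grown apart. The p-values therefore reflect the spread among these libraries alone, which may be technical.

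The transcription factor p53 is stabilised by DNA damage and other stress and switches on genes that stop the cell cycle, repair DNA or trigger death. ATF4 is the effector of the integrated stress response, in which amino acid shortage or stress of the endoplasmic reticulum lowers general translation while ATF4 switches on genes of amino acid synthesis, uptake and tRNA charging. Flavones are also known ligands of the aryl hydrocarbon receptor.

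The table gives abundance as TPM, a unit in which the transcripts of a library always add to the same total, so sequencing depth is unknown. Between 11862 and 12862 genes reached 1 TPM in each of the 12 libraries. Correlations of log2 values were 0.9917 to 0.9946 within a group, 0.9581 to 0.9807 between the groups of a line and 0.7331 to 0.7647 between lines. Of 10 ovarian and epithelial markers, the summed level was 5.5 to 6.4 TPM in the A2780 DMSO libraries and 952 to 993 TPM in those of ES2, where it came almost wholly from the keratins KRT7, KRT8 and KRT18. EPCAM had a mean of 1.1 TPM in A2780 with DMSO and PAX8 a mean of 1 TPM in ES2 with DMSO, while MUC16, CDH1 and KRT19 were near 0 in both lines. The pan-leukocyte gene PTPRC was under 1 TPM in all 4 groups, although CD68 had a mean of 61.2 TPM and ITGB2 of 35.5 TPM in ES2 with DMSO. The share of TPM in transcripts annotated as retained introns rose in A2780 from 3.39% ± 0.114 with DMSO to 5.23% ± 0.158 with luteolin (SD, n = 3 each), and was 4.33% ± 0.0322 and 4.54% ± 0.156 in ES2. The part of this shift in the results below was not tested.

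Of 13803 genes tested, 5924 (42.9%) had a luteolin effect that differed between the lines (limma on log2 of TPM + 1, adjusted p under the threshold of 0.05). On the positive side, with a greater rise or smaller fall in ES2, stood 3138 genes (22.7%), and on the negative side 2786 (20.2%). These shares, and a median difference set to 0 over all genes, are the background against which each gene group below is read. The background is not matched for gene length, with which the difference also varied, as given at the end. A difference of at least 2-fold was called for 479 genes (3.47%) on the positive side and for 679 (4.92%) on the negative side. Within the lines, luteolin raised 3998 genes (29.0%) and lowered 4018 (29.1%) in A2780, and raised 2644 (19.2%) and lowered 2871 (20.8%) in ES2. Every effect is given relative to its own median, because the median gene moved by 0.20 (log2) in A2780 and 0.01 in ES2. Without this centring, 28.8% of the called differences were more positive in ES2 instead of 53%.

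Most of the called differences came from genes that moved in A2780. Only the A2780 effect passed the test for 2908 of the 5924 genes (49.1%), and only the ES2 effect for 1120 (18.9%). Another 1018 (17.2%) moved the same way in both lines by unequal amounts, with the larger change in A2780 for 825 and in ES2 for 193. Opposite changes were called for 727 (12.3%). Of these, 424 rose in ES2 and fell in A2780 (3.07% of the genes tested), and 303 fell in ES2 and rose in A2780 (2.2%). Rises and falls are relative to the median gene. COL6A2, for example, counted as a fall in A2780 with means of 22.5 TPM with DMSO and 23.4 TPM with luteolin. Without centring, 2515 genes fell in A2780 instead of 4018, and opposite changes were not recounted. In 151 genes neither effect passed on its own. In bulk RNA, a change in the share of cells that express a gene and a change in its RNA per cell cannot be told apart. Across genes, which are not independent replicates, the effects of the 2 lines had a Pearson correlation of 0.35, or 0.42 over the 11196 genes that reached 1 TPM in both lines. The spread of the effects over genes was an SD of 0.60 in A2780 and 0.43 in ES2.

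**Figure D1:**
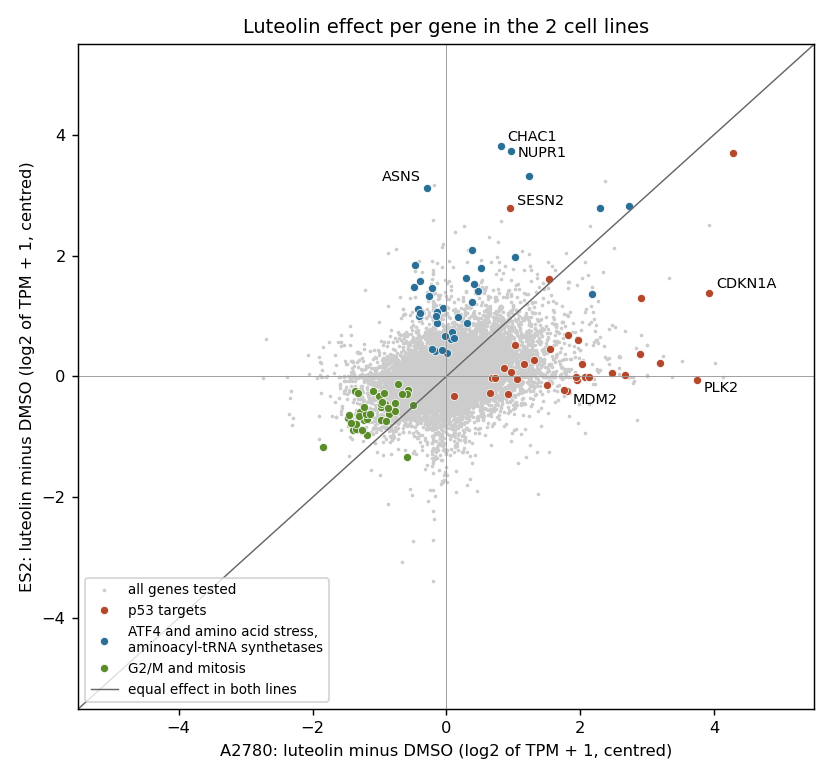
Luteolin effect of each gene in A2780 (horizontal axis) and ES2 (vertical axis), as log2 of TPM + 1 relative to the median gene; grey points are the 13803 genes tested, coloured points are members of gene lists, and the diagonal marks equal effects. The p53 targets spread to the right along the horizontal axis, the amino acid stress genes and tRNA synthetases upward, and most of the mitotic genes lie above the diagonal at lower left.

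VRK1, a nuclear serine/threonine kinase that phosphorylates p53 and chromatin proteins, was the target of the study's siRNA arm and responded differently to luteolin in the 2 lines. In A2780 it measured 55.1, 48.8 and 58.7 TPM with DMSO and 41.3, 43 and 35.5 TPM with luteolin. In ES2 it measured 57.3, 60.1 and 63.6 TPM with DMSO and 62.8, 53.8 and 67.9 TPM with luteolin. The A2780 groups did not overlap, while those of ES2 did. The centred change was -0.63 in A2780 and 0.02 in ES2, a difference of 0.65 ± 0.14 (log2, standard error; adjusted p = 0.00275). VRK1 lies at chr14:96797304-96931722 (GRCh38, GENCODE 29, plus strand).

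The p53 targets formed the group that leaned most to A2780. Of 32 p53 target genes tested, 27 were more negative in ES2 and 1 was more positive, against 20.2% and 22.7% of all genes, with a median difference of -1.29. In A2780, 31 of the 32 rose, with a median effect of 1.78. In ES2, 10 rose and 2 fell, with a median effect of 0.06. In every one of the 32 genes all 3 luteolin libraries lay above all 3 DMSO libraries in A2780, and in 11 of them in ES2. SPATA18, EDA2R, BTG2 and TP53INP1 are among the 27 and had means under 1 TPM in both ES2 groups. They passed the expression filter through A2780 alone, so their differences are largely the A2780 rises set against a gene that ES2 hardly expressed. SPATA18 had a mean of 0 TPM in both ES2 groups. With DMSO, 25 of the 32 had a lower mean in ES2 than in A2780 (78.1%, against 53.5% of all genes).

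CDKN1A, which encodes the cyclin-dependent kinase inhibitor p21, measured 48.1, 52 and 48.3 TPM in A2780 with DMSO and 809, 852 and 988 TPM with luteolin. In ES2 it measured 3.29, 3.75 and 3.46 TPM with DMSO and 12.3, 7.55 and 13.5 TPM with luteolin. It rose in both lines without overlap of the groups, by 3.93 in A2780 and 1.38 in ES2. The difference was -2.54 ± 0.22 (adjusted p = 4.56e-06). MDM2, the ubiquitin ligase that degrades p53, went from 33.7, 30.1 and 37.6 TPM to 134, 147 and 132 TPM in A2780. The ES2 libraries held 17.3, 19.5 and 17.2 TPM with DMSO and 14.8, 16.9 and 13.8 TPM with luteolin, and the difference was -2.04 ± 0.13 (adjusted p = 5.64e-07). FDXR, a mitochondrial ferredoxin reductase, went from 28.9, 26.6 and 27.9 TPM to 142, 142 and 145 TPM in A2780, while in ES2 it stayed between 4.96 and 5.81 TPM in all 6 libraries. The FDXR difference was -2.13 ± 0.10 (adjusted p = 5.63e-08).

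PLK2, a stress-induced polo-like kinase, had the greatest difference of the list, at -3.80 ± 0.24 (adjusted p = 4.27e-07). It stood at 7.99, 4.67 and 8.63 TPM in A2780 with DMSO and at 124, 124 and 114 TPM with luteolin. In ES2 it was already at 129.9, 133 and 139 TPM with DMSO and at 132, 109 and 151 TPM with luteolin. PLK2 in treated A2780 therefore reached about the level of ES2 with or without luteolin. The death receptor gene FAS went from 4.37, 3.97 and 5.58 TPM to 42.1, 46.4 and 51.1 TPM in A2780, and from 2.97, 3.35 and 3.62 TPM to 4.74, 4.23 and 4.72 TPM in ES2. FAS groups were separate in both lines, with a difference of -2.52 ± 0.16 (adjusted p = 5.64e-07). ZMAT3, an RNA-binding p53 target, measured 5.39, 4.11 and 5.63 TPM and then 35.8, 39 and 36.8 TPM in A2780, and 4.15 to 5.76 TPM over all ES2 libraries. Its difference was -2.41 ± 0.18 (adjusted p = 1.26e-06).

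Other p53 targets differed in the same direction. The antiproliferative gene BTG2 went from 14, 13.4 and 13.4 TPM to 136, 151 and 169 TPM in A2780 and was under 1 TPM in every ES2 library (difference -2.96 ± 0.14). TP53INP1, a stress-induced p53 cofactor, went from 2.42, 2.07 and 2.78 TPM to 22, 23.4 and 26.7 TPM in A2780, against 0.507 to 0.806 TPM in ES2 (difference -2.64 ± 0.16). SESN1, a sestrin that restrains the growth kinase mTORC1, differed by -1.98 ± 0.17, and the growth-arrest gene GADD45A by -1.62 ± 0.20. GADD45A rose in ES2 as well, from 95.4, 94.3 and 90.7 TPM to 227, 184 and 294 TPM. BBC3 and TNFRSF10B, which encode the death effectors PUMA and DR5, differed by -1.37 ± 0.15 and -1.10 ± 0.12 and rose in both lines. The single p53 target on the other side was SESN2, which is also a known ATF4 target. It went from 55.2, 52.3 and 54.3 TPM to 121, 115 and 126 TPM in A2780, and from 4.43, 5.31 and 4.62 TPM to 40.2, 35.7 and 41.4 TPM in ES2 (difference 1.84 ± 0.10, adjusted p = 1.86e-07). MDM2, SESN1 and GADD45A were picked for mention after their values had been seen.

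**Figure D2:**
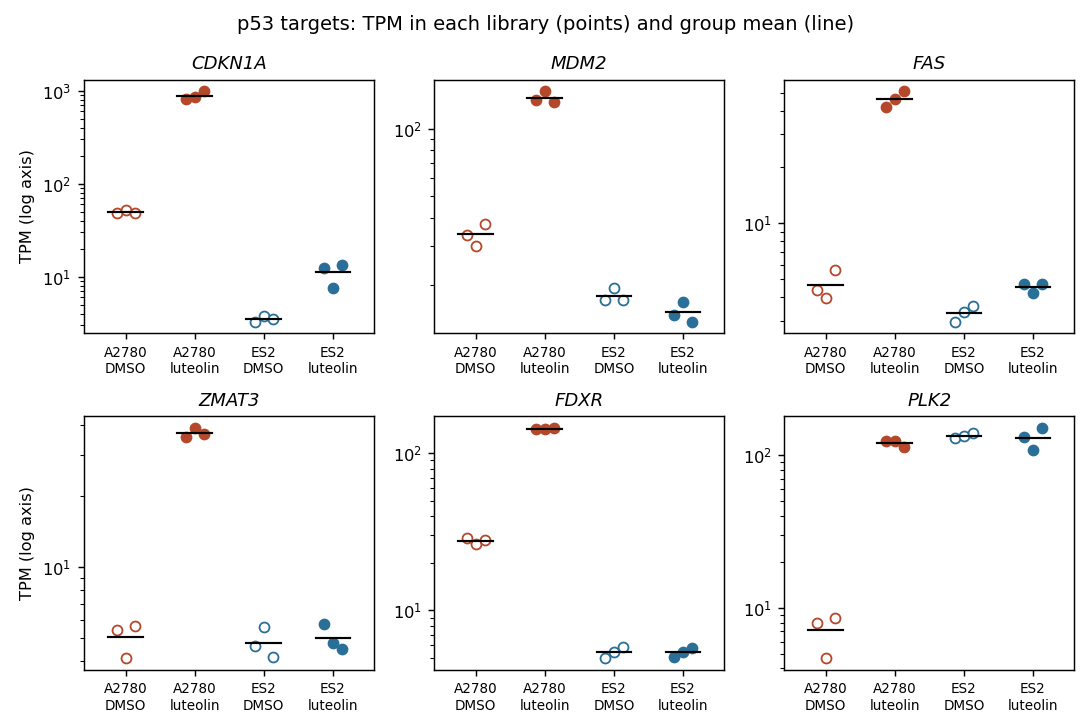
TPM of 6 p53 targets in each of the 12 libraries (log axis; open points DMSO, filled points luteolin, red A2780, blue ES2, black line the group mean of 3 libraries). In A2780 every luteolin library lies above every DMSO library for all 6 genes; in ES2 this holds for CDKN1A and FAS, and the MDM2 luteolin libraries lie below the DMSO libraries.

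The ATF4 and amino acid stress genes showed the reverse pattern. Of 24 tested, 21 were more positive in ES2 and 1 more negative, with a median difference of 1.17. All 24 rose in ES2, each with its luteolin libraries above its DMSO libraries, and the median effect was 1.55. In A2780, 14 rose and 6 fell, with a median effect of 0.29. The aminoacyl-tRNA synthetases, which charge tRNAs with amino acids, differed in the same direction. The list holds 12 of the cytosolic enzymes, not the full family, and was chosen with earlier results known. All 12 were tested and were more positive in ES2, with differences of 0.39 to 1.59 and a median of 1.01. All 12 rose in ES2 (median effect 1.0), while 1 rose and 7 fell in A2780 (median effect -0.16). These changes are relative to the median gene, which rose by 0.20 (log2) in A2780. By TPM, the A2780 luteolin libraries lay above the DMSO libraries for 4 synthetases and below them for 4. For the stress genes these counts were 16 and 4. With DMSO, ES2 held less than A2780 of 23 of the 24 stress genes and of 11 of the 12 synthetases. With luteolin this was so for 19 of 24 and 7 of 12. The starting level and the size of the change share the DMSO libraries, so they are not independent.

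ATF4 binds a composite element made of half-sites for C/EBP and ATF proteins, searched here as TGATGNAA on both strands in RefSeq promoters (250 bases before to 50 after each transcript start, GRCh38.p14). Over all 35116 promoters 3.62% held it. Of the stress genes, 19 of 24 matched a promoter entry, and 6 of their 29 promoters (20.7%) held the element. Of the synthetases, 10 of 12 matched, and 7 of 15 promoters (46.7%) held it. The motif was chosen after the expression values had been seen, the shares are a description without a test, and a match is not evidence of binding. Windows of 40 bases on the coding strand are printed for 6 of these genes, since the members with the greatest differences are among them. CEBPG and IARS1 were chosen for this after their values were seen. ATF3, a stress gene chosen here after its values were seen, also holds the element, 191 bases before its start, and its difference of 0.10 did not pass the test. Capitals mark the element, which reads TTNCATCA where it lies on the opposite strand.
ASNS: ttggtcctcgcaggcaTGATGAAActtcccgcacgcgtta
CHAC1: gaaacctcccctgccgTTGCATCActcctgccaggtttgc
CEBPG: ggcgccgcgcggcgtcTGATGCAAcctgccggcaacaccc
GARS1: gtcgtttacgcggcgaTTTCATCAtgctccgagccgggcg
AARS1: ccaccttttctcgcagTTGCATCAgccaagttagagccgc
IARS1: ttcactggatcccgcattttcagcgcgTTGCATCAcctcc
The windows lie at chr7:97872453-97872492 (minus strand) for ASNS, chr15:40953246-40953285 (plus) for CHAC1, chr19:33374055-33374094 (plus) for CEBPG, chr7:30594829-30594868 (plus) for GARS1, chr16:70289670-70289709 (minus) for AARS1 and chr9:92293698-92293737 (minus) for IARS1. The element starts 68 bases before the transcript start in ASNS, 209 in CHAC1, 42 in CEBPG, 33 in GARS1, 187 in AARS1 and 13 in IARS1.

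ASNS, asparagine synthetase, had the greatest positive difference of the genes well expressed in both lines, at 3.41 ± 0.10 (adjusted p = 2.79e-09). It measured 18, 20.6 and 18.7 TPM in ES2 with DMSO and 178, 155 and 192 TPM with luteolin. In A2780 it stood at 238, 234 and 247 TPM with DMSO and at 229.9, 221 and 225 TPM with luteolin. The level in treated ES2 thus came close to, and stayed below, the level that A2780 had in both conditions. CHAC1, an enzyme that breaks down glutathione, went from 0.711, 0.757 and 0.692 TPM to 23.1, 19.7 and 27.8 TPM in ES2. In A2780 it went from 62.1, 65.5 and 61.2 TPM to 137, 124 and 122 TPM, so it rose in both lines, with a difference of 3.01 ± 0.14 (adjusted p = 5.63e-08). NUPR1, a small stress-induced chromatin protein, went from 0.919, 1.39 and 1.5 TPM to 28.3, 26.7 and 31.7 TPM in ES2 and from 66.4, 72.3 and 66.5 TPM to 134, 152 and 179.5 TPM in A2780. Its difference was 2.76 ± 0.17 (adjusted p = 3.47e-07).

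PHGDH and PSAT1, enzymes of serine synthesis, moved in opposite directions in the 2 lines. PHGDH, the first enzyme of the pathway, went from 219, 216 and 223 TPM to 611, 612 and 615 TPM in ES2, and from 557, 572 and 555 TPM to 457, 476 and 451 TPM in A2780. Treated ES2 thereby held more PHGDH than any A2780 library, and the difference was 1.95 ± 0.05 (adjusted p = 4.85e-10). PSAT1, the next enzyme, went from 67.6, 72.7 and 67.5 TPM to 254, 249 and 249 TPM in ES2 and from 637, 631 and 744 TPM to 558, 573 and 529 TPM in A2780 (difference 2.31 ± 0.09). PSPH, the last enzyme, rose in ES2 from a mean of 29.6 to 55.5 TPM, while its A2780 libraries overlapped, with means of 93.7 and 97.4 TPM (difference 1.02 ± 0.08). SLC7A5 and SLC3A2, the subunits of a transporter of large neutral amino acids, differed by 1.70 ± 0.06 and 1.34 ± 0.11. SLC6A9, a glycine transporter, went from 0.0692, 0.504 and 0.105 TPM to 6.14, 4.2 and 5.94 TPM in ES2 and held 29.1 to 41.1 TPM over the A2780 libraries (difference 2.27 ± 0.21). MTHFD2, of mitochondrial folate metabolism, differed by 1.22 ± 0.09, and PCK2, the mitochondrial PEP carboxykinase, by 1.98 ± 0.09. CBS and CBSL, near-identical copies of cystathionine beta-synthase between which kallisto divides reads, differed by 1.87 ± 0.16 and 2.09 ± 0.07 and are uncertain as single genes.

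ATF4 mRNA itself went from 302, 252 and 275 TPM to 546, 531 and 561 TPM in ES2 and from 604, 568 and 594 TPM to 800.2, 735 and 754 TPM in A2780, a difference of 0.81 ± 0.08 (adjusted p = 1.79e-05). TRIB3, a pseudokinase that feeds back on ATF4, differed by 1.71 ± 0.16. DDIT4, an inhibitor of mTORC1, went from 11.3, 9.95 and 9.63 TPM to 112, 86.9 and 141 TPM in ES2 and from 140.4, 142 and 145 TPM to 370.4, 369 and 416 TPM in A2780 (difference 2.09 ± 0.19). The exception of the list was PPP1R15A, the phosphatase subunit GADD34 that ends the response. It went from 19.9, 18 and 16.6 TPM to 99.9, 94.3 and 100.2 TPM in A2780 and from 75.7, 78.7 and 71.8 TPM to 208, 159 and 228 TPM in ES2 (difference -0.81 ± 0.15, adjusted p = 0.00125). Among the synthetases, GARS1, the glycine enzyme, went from 122, 126 and 123 TPM to 311, 304 and 319 TPM in ES2 and from 270.0, 266 and 281 TPM to 257, 257 and 265 TPM in A2780. The GARS1 difference was 1.59 ± 0.05 (adjusted p = 6.48e-09), and the treatment exchanged the order of the lines. CARS1, WARS1 and AARS1, the enzymes for cysteine, tryptophan and alanine, differed by 1.55 ± 0.07, 1.46 ± 0.10 and 1.42 ± 0.07. ATF4, PHGDH, PSPH, SLC7A5, SLC3A2, TRIB3, MTHFD2, PCK2, CBS and AARS1 were added to the named genes after their values had been seen.

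**Figure D3:**
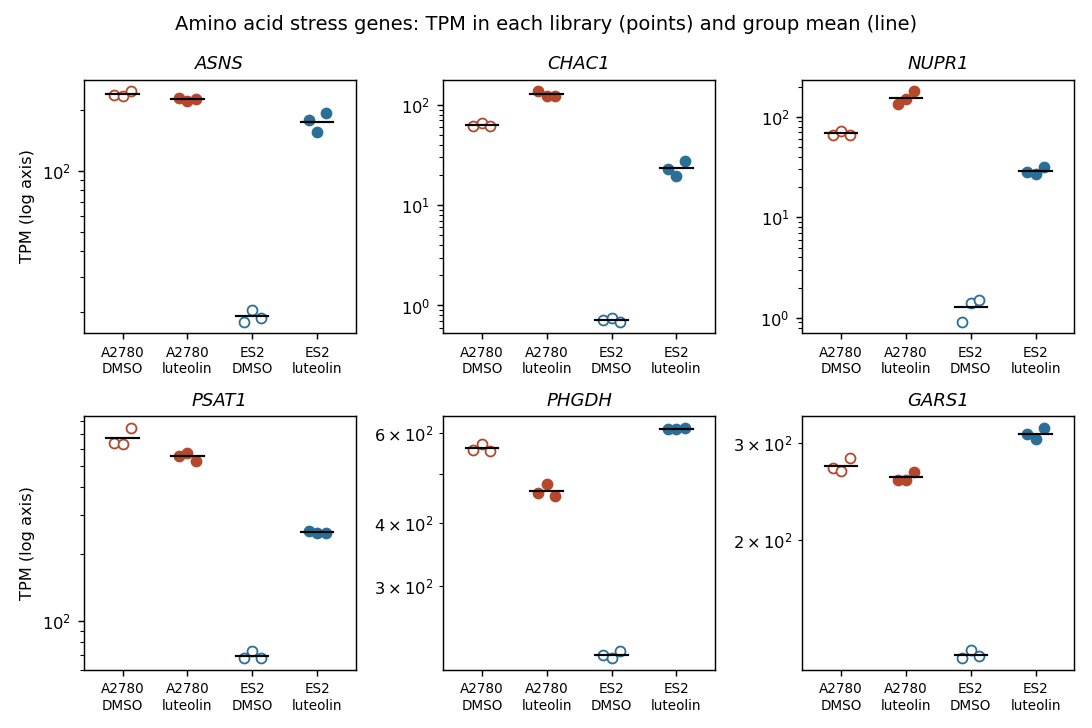
TPM of 6 amino acid stress genes in each of the 12 libraries (log axis; open points DMSO, filled points luteolin, red A2780, blue ES2, black line the group mean of 3 libraries). The ES2 DMSO libraries are the lowest group for all 6 genes, and every ES2 luteolin library lies above them; for PHGDH and GARS1 the ES2 luteolin libraries are also above those of A2780.

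Most genes of G2/M and mitosis fell in both lines, and most of them fell less in ES2. Of 38 genes of G2/M and mitosis, all 38 fell in A2780 (median effect -1.05) and 34 fell in ES2 (median effect -0.58). Of these 38, 27 were more positive in ES2 and 1 more negative, with a median difference of 0.52. Without centring, 18 were more positive. AURKB, the kinase of the chromosomal passenger complex, went from 142, 142 and 135 TPM to 66.2, 73.6 and 47.5 TPM in A2780 and from 199, 225 and 201 TPM to 177, 173 and 176 TPM in ES2. The AURKB difference was 1.12 ± 0.17 (adjusted p = 0.000239). UBE2C, the ubiquitin-conjugating enzyme of the anaphase-promoting complex, fell from 374, 378 and 349 TPM to 189, 179 and 138 TPM in A2780 and from 419, 427 and 426 TPM to 352, 361 and 345 TPM in ES2 (difference 1.06 ± 0.13). KIF4A, a chromosome-bound kinesin, differed by 0.86 ± 0.13. The 1 exception was the kinesin KIF20A (difference -0.75 ± 0.20, adjusted p = 0.0101), and its call was lost when only protein-coding transcripts were summed.

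Of 40 genes of G1/S and DNA replication, 30 were more positive in ES2 and 1 more negative, with a median difference of 0.61. In A2780, 34 fell and 1 rose (median effect -0.83), and in ES2, 18 fell and 3 rose (median effect -0.18). TK1, thymidine kinase, fell from 99.3, 109 and 97.9 TPM to 38.8, 42.1 and 33.4 TPM in A2780 and from 80.4, 89.6 and 85.2 TPM to 64.6, 62.4 and 73.7 TPM in ES2. Its difference was 1.25 ± 0.12 (adjusted p = 1.16e-05). CHAF1B, a histone chaperone subunit, and the transcription factor E2F2 differed by 1.10 ± 0.13 and 1.08 ± 0.20, and neither effect passed the test in ES2. PCNA, the replication clamp and a known p53 target, was the 1 exception. It measured 301, 307 and 325 TPM and then 382, 404 and 369.9 TPM in A2780, and 279.9, 307 and 293 TPM and then 237, 207 and 241 TPM in ES2 (difference -0.47 ± 0.09, adjusted p = 0.00105).

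Many mitotic promoters carry the cell cycle genes homology region, the element through which the DREAM and B-MYB complexes act, searched here as TTTGAA on both strands. It stood in 26 of 41 promoters (63.4%) of the G2/M genes, of which 32 of 38 had an entry, in 1 of 45 promoters (2.22%) of the G1/S genes, of which 35 of 40 had an entry, and in 15.2% of all promoters. The motif was again chosen with the values known and the shares have no test. Windows of 3 members are shown because the element sits close to the transcript start in each, with the element in capitals.
CCNB2: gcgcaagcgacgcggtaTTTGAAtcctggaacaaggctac
PLK1: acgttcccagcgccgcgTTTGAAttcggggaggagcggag
KIF4A: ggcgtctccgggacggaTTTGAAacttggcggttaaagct
These lie at chr15:59105100-59105139, chr16:23678843-23678882 and chrX:70290053-70290092 on the plus strand, and the element starts 29, 29 and 34 bases before the transcript start. The differences of CCNB2, PLK1 and KIF4A were 0.78, 0.68 and 0.86, and all 3 were called. The element lies equally close in BUB1B (23 bases before the start) and MKI67 (47 and 29 bases). Their differences of 0.23 and 0.37 did not pass the test. ECT2, KIF23 and TOP2A also hold the element and were not called. These uncalled genes, as well as CCNB2 and PLK1, were chosen after their values were seen.

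Interferon-stimulated and antigen processing genes were called mainly on the positive side. Of 25 tested, 15 were more positive in ES2 and 2 more negative, with a median difference of 0.57. In A2780, 14 fell and 3 rose (median effect -0.58), and in ES2, 9 rose and 4 fell (median effect 0.17). PSMB9, a subunit of the immunoproteasome, fell from 34.4, 31.8 and 25.5 TPM to 5.67, 4.07 and 4.1 TPM in A2780 and rose from 8.33, 9.17 and 7.57 TPM to 12.5, 11.6 and 16.4 TPM in ES2. The groups were separate in both lines and the difference was 3.31 ± 0.21 (adjusted p = 5.63e-07). IFI35, an interferon-induced protein, fell from 23.7, 23.9 and 19.9 TPM to 4.56, 4.39 and 4.17 TPM in A2780 and held 4.9 to 7.4 TPM over the ES2 libraries (difference 2.09 ± 0.17). IRF1, a transcription factor of the interferon response, fell from 28.9, 26.8 and 26.1 TPM to 9.61, 8.9 and 6.99 TPM in A2780 and showed -0.00 in ES2 (difference 1.78 ± 0.16, adjusted p = 7.18e-06). The 2 on the negative side were ERAP2 and STAT2, and this count was 0 to 3 when 1 library was left out. It was 0 without A2780 DMSO replicate 2 or 3, A2780 luteolin replicate 3 or ES2 luteolin replicate 3, and 1 without any of the ES2 DMSO replicates or without ES2 luteolin replicate 1 or 2.

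Targets of NF-kB, the inflammatory transcription factor, were called mainly where A2780 hardly expressed them. Of 17 tested, 9 were more positive in ES2 and 1 more negative, with a median difference of 0.78. Of the 17, 15 rose in ES2 (median effect 1.06), and 6 rose and 1 fell in A2780 (median effect 0.05). Interleukin-8, encoded by CXCL8, measured 316, 326 and 333 TPM in ES2 with DMSO and 824, 598 and 825 TPM with luteolin, against 0, 0 and 0 TPM and 0.0433, 0.19 and 0 TPM in A2780. CXCL1, a related neutrophil chemokine, went from 91.6, 90.8 and 93.1 TPM to 212, 155 and 211 TPM in ES2 and reached 0.155 TPM at most in A2780. IL1B, interleukin-1 beta, went from 10.4, 9.63 and 10 TPM to 31, 19.5 and 32.9 TPM in ES2 and reached 0.121 TPM at most in A2780. The differences of 1.28 ± 0.16, 1.31 ± 0.16 and 1.47 ± 0.22 are thus the ES2 rises set against a gene that A2780 lacked, and for such genes the centring alone moves the A2780 value below 0. With a pseudocount of 0.1, 4 members were more positive and CXCL8 lost its call. Requiring expression in each line left 2. LIF, a cytokine present in both lines, went the other way, from 4.34, 3.97 and 3.93 TPM to 23.6, 27.3 and 27.7 TPM in A2780 and from 25.5, 31.4 and 31.6 TPM to 57.2, 36.4 and 60.9 TPM in ES2 (difference -1.47 ± 0.23, adjusted p = 0.000304). CXCL8 was added to the named genes after its values had been seen.

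The kappaB core searched here, GGAATTTCC on both strands, stood in 0.461% of all promoters and in 8 of 23 promoters (34.8%) of the NF-kB list, of which 18 of 21 genes had an entry. The search was made with the values known and has no test. Windows of the 4 chemokine promoters with a core are shown, with the core in capitals, because all 4 genes were more positive in ES2.
CXCL8: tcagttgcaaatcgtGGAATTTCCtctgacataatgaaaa
CXCL1: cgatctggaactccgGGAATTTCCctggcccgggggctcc
CXCL2: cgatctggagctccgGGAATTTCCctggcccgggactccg
CXCL3: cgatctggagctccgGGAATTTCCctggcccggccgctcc
They lie at chr4:73740463-73740502 (plus strand), chr4:73869300-73869339 (plus), chr4:74099248-74099287 (minus) and chr4:74038743-74038782 (minus), and the core starts 91, 78, 77 and 78 bases before the transcript start. A core was also found in the promoters of NFKBIZ and NFKBIA, whose differences of 0.35 and -0.22 did not pass the test; both were chosen after their values were seen. CXCL2 and CXCL3 were likewise chosen after their values were seen. CXCL1, CXCL2 and CXCL3 share much of their sequence, so their single levels are uncertain.

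**Figure D4:**
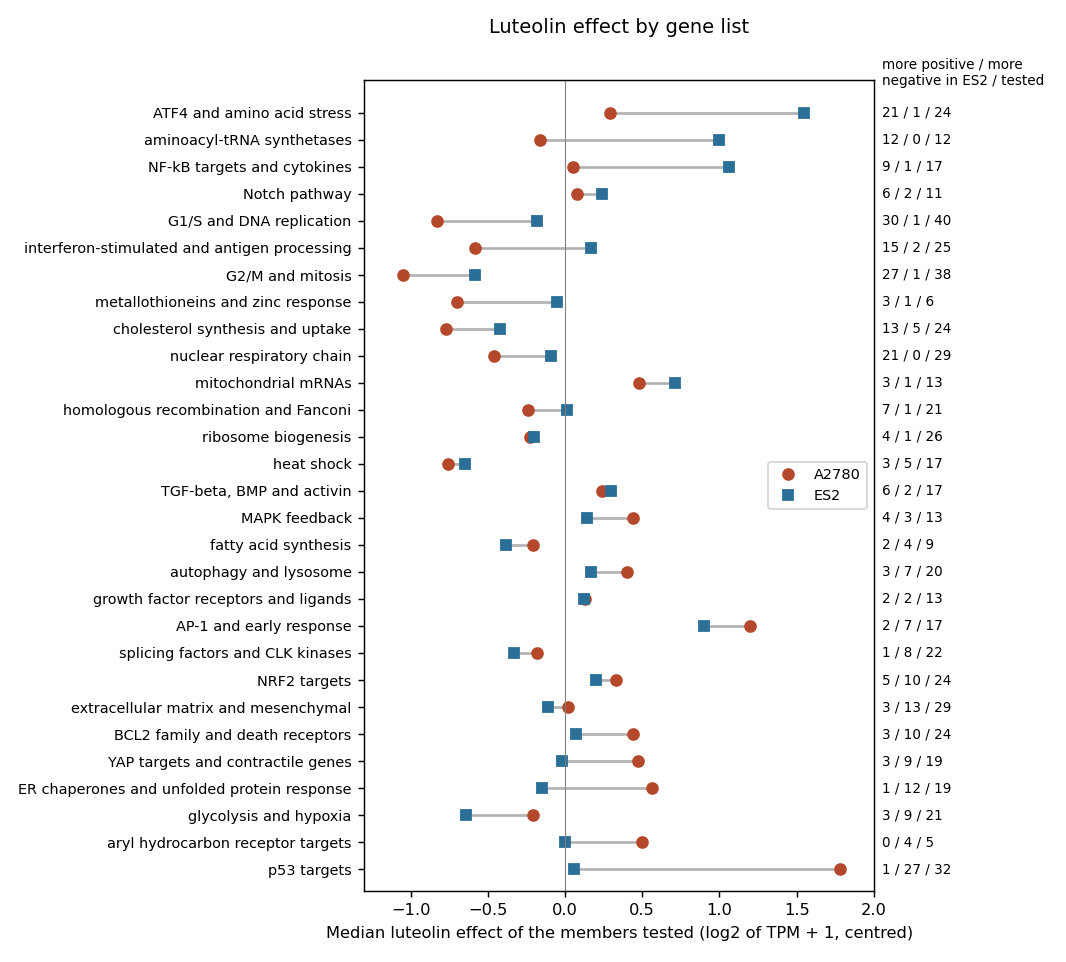
Median luteolin effect of the tested members of 29 gene lists in A2780 (red circles) and ES2 (blue squares), as log2 of TPM + 1 relative to the median gene, ordered by the median difference; the figures at right are members more positive in ES2, more negative in ES2 and tested. The p53 targets stand lowest, with medians of 1.78 and 0.06, and the ATF4 list highest, with 0.29 and 1.55.

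Of 17 AP-1 and early response genes, 14 rose in each line, and 7 were more negative and 2 more positive in ES2. The second count was 7 without ES2 luteolin replicate 2, 0 without A2780 DMSO replicate 1 or ES2 DMSO replicate 1 or 2, and 1 without A2780 DMSO replicate 2, any A2780 luteolin replicate, ES2 DMSO replicate 3 or ES2 luteolin replicate 1. FOSL1, the AP-1 subunit FRA1, went from 1.73, 1.99 and 1.74 TPM to 32, 30.5 and 47.5 TPM in A2780 and from 552, 543 and 538 TPM to 659.9, 627 and 660.0 TPM in ES2 (difference -3.27 ± 0.18, adjusted p = 1.56e-07). JUN, its partner, went from 0.109, 0.204 and 0.134 TPM to 3.94, 3.7 and 4.77 TPM in A2780 and from 146, 143 and 132 TPM to 194, 192 and 202 TPM in ES2 (difference -1.48 ± 0.11). Both genes were far lower in A2780 before treatment, and they remained so after it. KLF2, a Kruppel-like factor, differed by -2.11 ± 0.30. HES1, a repressor downstream of Notch, went from 16.5, 14.3 and 15.2 TPM to 332, 284 and 293 TPM in A2780. In ES2 it measured 37.3, 45.2 and 42.3 TPM and then 59.1, 21 and 93.3 TPM, where replicate 2 lay below the controls and the others above (difference -3.79 ± 0.52, adjusted p = 0.000131). Of the 11 genes of the Notch list tested, 6 were more positive in ES2 and 2 more negative, with a median difference of 0.61. HES4 and HEY1, other repressors of the family, and the ligand JAG1 differed by 1.43, 0.995 and 0.90.

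Of 19 YAP targets and contractile genes, 9 were more negative in ES2 and 3 more positive, with a median difference of -0.43. CCN2, a matricellular protein and a standard readout of the coactivator YAP, went from 6.6, 6.97 and 7.26 TPM to 58.1, 63.8 and 73 TPM in A2780 and from 790.2, 795 and 775 TPM to 508, 372 and 588 TPM in ES2. It rose in 1 line and fell in the other without overlap of the groups (difference -3.56 ± 0.19, adjusted p = 1.23e-07). CCN1, its paralog, went from 39.1, 38.7 and 39.1 TPM to 191, 209 and 217 TPM in A2780, and its ES2 groups overlapped at 967 to 1055 TPM and 965 to 1373 TPM (difference -1.96 ± 0.14). ANKRD1, a muscle ankyrin repeat protein and another YAP target, fell in both lines and more in ES2, from 98.7, 111 and 105 TPM to 14.9, 16.2 and 13.9 TPM there (difference -2.23 ± 0.11).

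Of 29 genes of the extracellular matrix and mesenchymal state, 13 were more negative and 3 more positive in ES2, with a median difference of -0.28. THBS1, thrombospondin 1, rose from 7.27, 7.68 and 9.5 TPM to 61.4, 71.6 and 84.6 TPM in A2780 and lay between 6.26 and 11.2 TPM in all ES2 libraries (difference -2.88 ± 0.27). COL1A1, a chain of type I collagen, fell in ES2 from 128, 106 and 112 TPM to 11.2, 11.2 and 16.6 TPM and in A2780 from 3.27, 2.68 and 3.5 TPM to 1.75, 1.68 and 2.59 TPM (difference -2.41 ± 0.22). TGFBI, a matrix protein, fell in ES2 from 63.6, 63 and 64.3 TPM to 14.3, 16.1 and 18.9 TPM (difference -2.35 ± 0.22). POSTN, periostin, fell in A2780 from 198, 189.8 and 240.3 TPM to 89.5, 91.4 and 83.7 TPM and was near 0 in ES2 (difference 1.46 ± 0.13). COL1A1 belongs to the fibroblast markers as well, whose summed level over 7 genes went from 109 to 130 TPM in ES2 with DMSO to 14.1 to 19.5 TPM with luteolin. COL1A1 made up nearly all of that sum in ES2, with means of 115 and 13 TPM, and LUM was near or at 0 there. Of the 6 fibroblast markers tested, 3 were more positive in ES2 and COL1A1 alone more negative, and THY1, a surface glycoprotein, rose in ES2 from a mean of 0.331 to 1.25 TPM and fell in A2780 from 42.5 to 27 TPM. CDH5, an endothelial cadherin, went from 35.7, 39.3 and 38.5 TPM to 8.91, 9.15 and 8.52 TPM in ES2 (difference -1.81 ± 0.12). It was the only 1 of 6 endothelial markers tested. The endothelial genes VWF, TEK and ERG were near 0 and KDR was under 1 TPM in both lines. PECAM1, another endothelial marker, went the other way in ES2, from a mean of 0.377 to 1.12 TPM. AXL, a receptor tyrosine kinase, rose from 9.99, 9.84 and 11.1 TPM to 19.6, 20.9 and 23.2 TPM in A2780 and fell from 136, 150.1 and 144 TPM to 101, 104 and 105 TPM in ES2 (difference -1.25 ± 0.10).

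Chaperones of the endoplasmic reticulum did not follow the ATF4 genes. Of 19 genes of the unfolded protein response, 12 were more negative and 1 more positive in ES2, with a median difference of -0.47. In A2780, 12 rose and 3 fell (median effect 0.56), and in ES2, 5 rose and 9 fell (median effect -0.15). DNAJB9, a co-chaperone of BiP, rose from 5.97, 5.96 and 8.69 TPM to 40.7, 43.2 and 36 TPM in A2780 and from 3.69, 4.47 and 3.91 TPM to 8.97, 9.85 and 9.74 TPM in ES2 (difference -1.13 ± 0.18, adjusted p = 0.000368). SEL1L, of the ER-associated degradation complex, and EDEM1, a mannosidase-like protein of that pathway, differed by -1.14 ± 0.22 and -0.86 ± 0.15. The positive exception was XBP1, a transcription factor of the response, which went from 39.9, 42.6 and 40.4 TPM to 108, 97.2 and 120.2 TPM in ES2 and from 81.1, 79.6 and 91.1 TPM to 152, 142 and 133 TPM in A2780 (difference 0.82 ± 0.11).

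NRF2 is a transcription factor that is stabilised under oxidative stress and drives antioxidant genes. Of 24 targets tested, 10 were more negative in ES2 and 5 more positive, and the second share is near the background. HMOX1, heme oxygenase 1, went from 20.9, 24 and 21.9 TPM to 166, 183 and 218 TPM in A2780 and from 18.1, 16.7 and 18.2 TPM to 25.8, 23.6 and 25.1 TPM in ES2. The lines started alike and both rose, with a difference of -2.36 ± 0.13 (adjusted p = 1.58e-07). GCLM, a subunit of the glutathione-synthesising enzyme, rose from 12.3, 13.5 and 14.8 TPM to 29, 34.1 and 36.4 TPM in A2780 and fell from 38.8, 41.4 and 44.3 TPM to 34.6, 32 and 33.5 TPM in ES2 (difference -1.34 ± 0.13). SLC7A11, the cystine transporter, was more positive in ES2, with a difference of 0.95 ± 0.15. SLC7A11 is also counted in the ATF4 list. Of 5 aryl hydrocarbon receptor targets tested out of 8, 4 were more negative in ES2. NQO1, a quinone reductase shared with NRF2, rose from 306, 300.5 and 320.2 TPM to 763, 722 and 711 TPM in A2780 and from 162, 165 and 152 TPM to 213, 209 and 231 TPM in ES2 (difference -0.60 ± 0.07). TIPARP, which feeds back on the receptor, differed by -0.71 ± 0.15, and CYP1B1, a monooxygenase near 0 in ES2, lost its call with a pseudocount of 0.1, where 2 members were left.

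MT1X, a metallothionein that binds zinc and copper, fell from 163, 164 and 151 TPM to 30.9, 40 and 36 TPM in A2780 and from 217, 229 and 223 TPM to 180.4, 175 and 166 TPM in ES2 (difference 1.98 ± 0.11, adjusted p = 1.66e-07). The zinc exporter SLC30A1 rose in both lines and more in A2780 (difference -0.82 ± 0.15). The metallothionein genes are close copies, so single members are uncertain. Of 20 autophagy and lysosome genes, 7 were more negative in ES2 and 3 more positive, against 20.2% and 22.7% of all genes. The median difference was -0.05. The 3 were CTSD, MAP1LC3B and NEU1, with differences of 0.58, 0.46 and 0.45. GABARAPL1, an autophagosome protein, rose from 14.8, 17.7 and 18.1 TPM to 61.4, 60.4 and 64.7 TPM in A2780 and fell from 11.9, 15.1 and 13.4 TPM to 9.36, 8.71 and 11.6 TPM in ES2 (difference -2.04 ± 0.16). SQSTM1, the autophagy receptor p62, rose in both lines, from 47.5, 51.7 and 54.1 TPM to 223, 212 and 188 TPM in A2780 and from 79.4, 70.1 and 75.7 TPM to 151, 139 and 173 TPM in ES2 (difference -0.78 ± 0.12). SQSTM1 was added after its values had been seen.

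Most cholesterol genes fell in both lines, to unequal degrees. The list of cholesterol synthesis and uptake had 24 genes tested, with 13 more positive in ES2 and 5 more negative, with a median difference of 0.42. In A2780, 20 of them fell, and in ES2, 17. FDPS, farnesyl diphosphate synthase, fell from 423, 435 and 433 TPM to 164, 163 and 162 TPM in A2780 and from 203, 201 and 200.1 TPM to 179, 177 and 192 TPM in ES2 (difference 1.45 ± 0.05, adjusted p = 1.27e-08). EBP, the sterol isomerase, differed by 1.08 ± 0.10. On the other side stood STARD4, a cholesterol carrier, which fell from 6.63, 8.58 and 7.63 TPM to 1.03, 1.52 and 1.96 TPM in ES2 (difference -2.10 ± 0.24). Of 9 genes of fatty acid synthesis, 4 were more negative in ES2 and 2 more positive, with a median difference of -0.02. In A2780, 4 of these 9 fell and 1 rose, and in ES2, 8 fell. SCD, the stearoyl-CoA desaturase of that list, fell from 96.5, 103 and 97.6 TPM to 48.9, 46.6 and 49 TPM in ES2 and rose from 204, 201 and 232 TPM to 264, 277 and 282 TPM in A2780 (difference -1.20 ± 0.08).

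Of 29 nuclear genes of the respiratory chain, 21 were more positive in ES2, with a median difference of 0.41, and the other 8 did not pass. In A2780, 24 fell (median effect -0.46), and in ES2, 11 fell and 1 rose (median effect -0.09). Without centring 14 were more positive and 1 more negative. COX5B, a subunit of cytochrome c oxidase, fell from 613, 614 and 577 TPM to 399, 392 and 362 TPM in A2780 and measured 289, 260.1 and 276 TPM and then 256, 271 and 240.0 TPM in ES2 (difference 0.74 ± 0.08, adjusted p = 2.44e-05). CYC1, cytochrome c1, and COX4I1, another oxidase subunit, both differed by 0.68 ± 0.07. The summed share of the mitochondrially encoded mRNAs went from 7.10% to 10.5% in A2780 and from 4.57% to 7.78% in ES2, and with these mRNAs left out before rescaling, 21 nuclear genes were again more positive.

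Among 24 genes of the BCL2 family and death receptors, 10 were more negative in ES2 and 3 more positive. FAS, BBC3 and TNFRSF10B, given with the p53 targets, are among the 10. BCL2A1, an anti-apoptotic member and NF-kB target, went from 59.8, 72.8 and 70 TPM to 136, 118 and 137 TPM in ES2 and was at 0 in all 6 A2780 libraries (difference 1.13 ± 0.13).

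Genes that rose in 1 line and fell in the other were ranked by the smaller of their 2 effects, with at least 5 TPM in the higher group of each line, and 8 were taken in each direction. Of those that rose in ES2 and fell in A2780, LCP1, an actin-bundling protein, went from 1.43, 0.795 and 0.928 TPM to 6.99, 5.7 and 9.99 TPM in ES2 and from 49.4, 45.8 and 51.7 TPM to 31.4, 28.8 and 30.9 TPM in A2780. Its effects of 2.04 and -0.87 gave a difference of 2.91 ± 0.23 (adjusted p = 2e-06). DBNDD2, a dysbindin-domain protein, went from 22.7, 24.3 and 22.6 TPM to 54.8, 48.9 and 56.9 TPM in ES2 and from 43.4, 39.6 and 41.7 TPM to 25.8, 25.5 and 25.5 TPM in A2780, so the order of the lines was exchanged (difference 2.04 ± 0.09). Of those that fell in ES2 and rose in A2780, NMNAT2, an NAD-synthesising enzyme of neurons, went from 65.8, 66.7 and 71.2 TPM to 17.1, 18.4 and 15.2 TPM in ES2 and from 1.08, 1.01 and 1.07 TPM to 6.1, 5.12 and 4.13 TPM in A2780 (difference -3.32 ± 0.16, adjusted p = 5.63e-08). TTYH3, a member of the tweety family, went from 31.7, 31.8 and 33.5 TPM to 17.9, 17.3 and 16.5 TPM in ES2 and from 30.2, 28.2 and 29.1 TPM to 72.8, 75.4 and 83.9 TPM in A2780. The lines thus began at a like level of TTYH3 and parted with luteolin (difference -2.05 ± 0.09). ALCAM, a cell adhesion molecule, went from 109, 109 and 119 TPM to 68.9, 71.4 and 66.3 TPM in ES2 and from 33.9, 32.3 and 42.3 TPM to 70.2, 77.8 and 68.2 TPM in A2780, which brought the lines together (difference -1.49 ± 0.13).

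**Figure D5:**
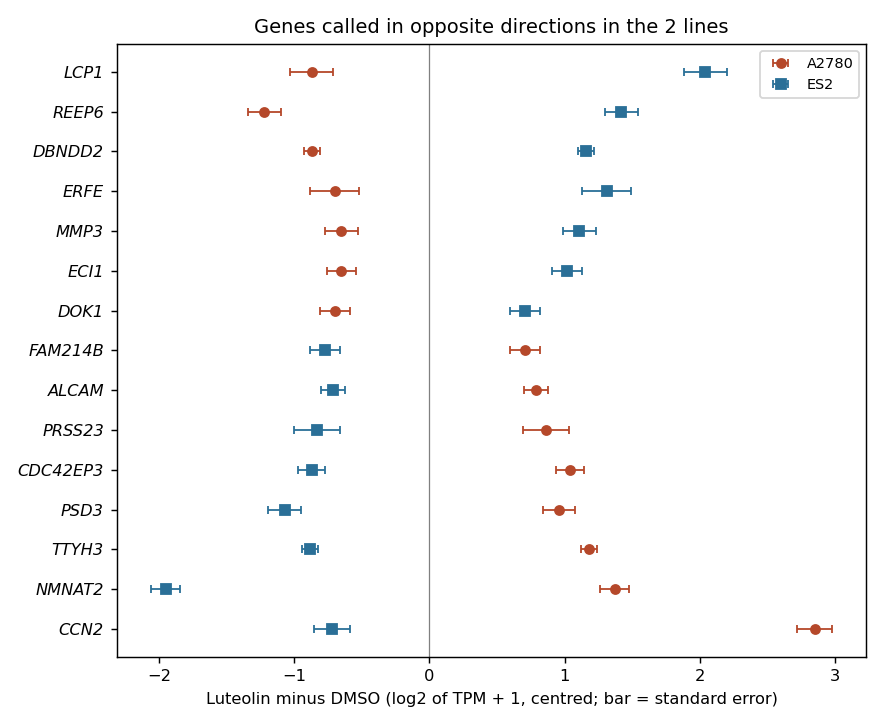
Luteolin effect in A2780 (red circles) and ES2 (blue squares) of 15 genes called in opposite directions. Effects are log2 of TPM + 1 relative to the median gene, with standard errors of the fit. The genes were picked by the smaller of their 2 effects and are ordered by the difference. The upper 7 genes rose in ES2 and fell in A2780, from LCP1 at 2.04 and -0.87 down to DOK1, and the lower 8 did the reverse, with CCN2 at -0.72 and 2.85.

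A further set of differences came from genes nearly silent in 1 line. Of the called genes, 384 had means under 1 TPM in both A2780 groups and 730 in both ES2 groups. SULF2, an extracellular sulfatase, rose from 0.353, 0.752 and 0.91 TPM to 30.6, 32.8 and 33.4 TPM in A2780 and was under 1 TPM in every ES2 library (difference -4.14 ± 0.18, adjusted p = 3.98e-08). PAPPA2, a metalloproteinase that cleaves IGF-binding proteins, rose from 0.162, 0.0944 and 0.0848 TPM to 9.58, 9.68 and 7.85 TPM in ES2 and reached 0.0192 TPM at most in A2780 (difference 3.35 ± 0.14). MYL9, a myosin light chain, fell from 569, 574 and 547 TPM to 385, 326 and 348 TPM in A2780 and was at 0 in all 6 ES2 libraries (difference 0.87 ± 0.09). When library size was rescaled by the median of ratios before the log, which leaves zeros at 0, 5740 of the 5924 calls (96.9%) were kept in the same direction, and 1040 of the 1113 calls of genes silent in 1 line (93.4%). Among the 197 positive calls of genes silent in A2780, 138 were kept.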

How the data were processed

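The deposited table holds TPM per transcript for 24 libraries, made by the authors with FastQC and kallisto against the human build hg19, per the submitters' processing notes, which give no versions; the transcript set is not given in the sources used here. Its 193845 lines hold 191887 transcripts, and the 1958 repeated lines are identical. Groups and replicate numbers were read from the titles, because the cell line label counts upward within a line. TPM of distinct transcripts was summed per gene symbol, which left out 0.514% to 0.920% of the TPM of a library. Genes at 1 TPM or more in at least 3 of the 12 libraries were fitted with limma 3.58.1 in R 4.3.3 (trend, 4 group means, log2 of TPM + 1, two-sided, Benjamini-Hochberg adjustment over 13803 genes, threshold 0.05). Every adjusted p in the text comes from limma's moderated test of the difference of effects, and fold changes understate low genes. Each effect was centred at its median. A ± gives the standard error from the fit, or an SD where so marked.

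The members and gene lists were chosen with earlier results of these data known. Named genes were VRK1, the 15 greatest differences per direction with at least 5 TPM in the higher group of each line and libraries that did not overlap in at least 1 line, up to 3 per list and direction, 8 per direction of opposite effects, 5 per direction silent in 1 line and 5 rises and 5 falls shared by the lines. Only genes past the threshold are given as results, and genes outside this rule are marked as chosen after their values were seen. Results of a few genes that the rule names are not reported here. Data were simulated with the residual spread of the fit. The group means were altered so that no effect differed between the lines, apart from genes then changed on purpose. There, limma recovered 80% of 100 genes changed 2-fold and 56% of 100 changed 1.5-fold. It made 6 false calls among the unchanged of the 13803 genes. In the real data 42.9% of genes were called, so these rates may not carry over. Positions are from GENCODE 29 on GRCh38, matched by symbol, and promoter windows from RefSeq on GRCh38.p14; kallisto divides reads between near-identical copies, and no strand setting is given. Alternatives were another pseudocount (0.1, 5), other filters, scalings and transcript sets, a replicate block, all 24 libraries and each library left out.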

Additional observations from a re-analysis of the deposited data

Results flagged for a closer look

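The test of the difference itself gave 3138 genes with an effect more positive in ES2 and 2786 with an effect more negative in ES2. Genes that changed in opposite directions in the 2 lines were picked by the smaller effect. They are given here in order of their differences (log2, ES2 minus A2780), and all passed the test. Of those that rose in ES2 and fell in A2780, the actin-bundling gene LCP1 differed by 2.91, the ER-shaping gene REEP6 by 2.65, DBNDD2 by 2.04 and the hepcidin-suppressing hormone gene ERFE by 2.01. The stromelysin gene MMP3 differed by 1.76, the fatty acid oxidation gene ECI1 by 1.68 and the adaptor gene DOK1 by 1.42. Of those that fell in ES2 and rose in A2780, CCN2 differed by -3.56, NMNAT2 by -3.32, TTYH3 by -2.05 and PSD3 by -2.03. The Cdc42 effector gene CDC42EP3 differed by -1.91, the protease gene PRSS23 by -1.68, ALCAM by -1.49 and FAM214B by -1.47.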

How the results depend on the processing

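The counts of genes called for the difference and for each line stayed within 1.5 times under every alternative apart from leaving out the centring. Without centring, 1889 genes were more positive and 4678 more negative in ES2, and 2515 fell in A2780, which follows from the unequal medians of the lines. With 1 library left out, the counts were 2813 to 3157 and 2429 to 2887. The replicate block gave 2765 and 2474. The labels do not say that a number marks a shared culture. Same-numbered DMSO and luteolin libraries deviated from their group means with correlations of -0.063 to 0.044. Pairs with different numbers gave -0.049 to 0.098. Deviations from means of 3 libraries cannot show whether same-numbered libraries were grown or handled together. Of 191 named genes, 145 kept their call and direction under every alternative that tested them. With a pseudocount of 0.1 the sign turned for ABCC3 (-0.14), KLF4 (-0.79), DUSP4 (-0.44) and TNFRSF10A (-0.07), all under 1 TPM in A2780 with DMSO. ENO1 turned to -0.04 without centring and -0.14 with quantile normalization, and NEU1 to -1.13 with protein-coding transcripts only; the cause was not tested. Over all alternatives, 23 to 30 p53 targets were more negative in ES2, and 20 to 21 ATF4 genes, 10 to 12 tRNA synthetases, 18 to 31 G2/M genes, 25 to 31 G1/S genes and 14 to 21 respiratory chain genes were more positive. Several counts of list members moved by over 1.5 times, and not only small ones. Autophagy and lysosome genes more negative went from 7 to 11 without centring, and Notch genes more positive from 6 to 3 with a filter in each line. Fatty acid genes more negative went from 4 to 2 without ES2 DMSO replicate 3 or ES2 luteolin replicate 1. Those more positive went from 2 to 0 without centring and to 1 without a filter or with quantile normalization. Without centring, cholesterol genes more negative in ES2 went from 5 to 8, YAP targets more positive from 3 to 1 (also 1 with quantile normalization) and interferon genes more negative from 2 to 4 (also 4 without a filter, 1 with a filter in each line or with the replicate block, and 0 with a pseudocount of 0.1). Matrix genes more positive went from 3 to 5 with a pseudocount of 5 or quantile normalization and to 1 with a filter in each line, and BCL2 family genes more positive from 3 to 1 with that filter and to 5 with quantile normalization or protein-coding transcripts only. AP-1 genes more positive went from 2 to 0 without centring, without a filter or with protein-coding transcripts only, to 1 with quantile normalization and to 4 with median-of-ratios scaling. Aryl hydrocarbon receptor targets more negative went from 4 to 2 with a pseudocount of 0.1 or a filter in each line. A pseudocount of 5 gave 2 p53 targets more positive instead of 1, and protein-coding transcripts alone gave 0 G2/M genes more negative instead of 1. Depth is unknown, so no limit from counting could be given.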

Other observations

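Several large gene families picked by symbol after the values had been seen lay on 1 side of the difference. Of 82 cytosolic ribosomal protein genes tested, 64 were more positive in ES2 and 2 more negative, with a median difference of 0.41 (background 22.7% and 20.2%). This background is not matched for gene length, with which the difference also varied, as given below. In A2780, 70 fell and 2 rose, and in ES2, 9 fell and 24 rose. Without centring, 47 were more positive and 7 more negative, and with quantile normalization 27 and 10. Of 78 mitochondrial ribosomal protein genes, 56 were more positive and 2 more negative (median difference 0.42), with 69 falling in A2780 and 33 in ES2. Of 48 genes of complex I subunits and assembly factors, 35 were more positive and 1 more negative, some of them counted above with the respiratory chain. Of 24 genes of the mitochondrial import translocases, 15 were more positive and 3 more negative. Proteasome subunit genes, at 18 and 3 of 38, turned to 9 and 10 without centring. Of 425 zinc finger genes named ZNF, 88 were more negative, a share near the background, and 48 more positive, and 215 of them rose in A2780 and 126 in ES2.

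The difference also varied with the length of the gene in the genome. Of 13128 protein-coding genes tested, 12901 (98.3%) had a span in GENCODE 29, and they were split into 4 equal parts. In the shortest part, with a median span of 6.78 kb, 38.1% were more positive in ES2 and 17.3% more negative. The shares were 25.5% and 19.3% at 21.5 kb, 18% and 20.3% at 49.7 kb, and 12.4% and 23.2% at 141 kb. The median difference went from 0.18 in the shortest part to -0.11 in the longest. The order over the 4 parts was the same without centring (25.8% to 6.42% more positive), with median-of-ratios scaling (38.3% to 12.8%) and with quantile normalization (34.4% to 15.8%). The share of retained-intron transcripts rose in A2780, from 3.39% to 5.23%, and was 4.33% and 4.54% in ES2; its part in this pattern was not tested.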
